A study of Mus musculus with 2 samples.

Results

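The genes described here encode the enzymes that build the N-glycan, move it onto new proteins, trim it and finish it, together with those that supply its sugars. They were taken as the 39 genes of a named list, by the gene name printed for each probe, and all 39 were found on the array, with 69 probes. A gene counted as measured when its probe stood well above background for each RNA on each array, which held for all 39 and for 17560 of 27670 gene names in all. The rule itself uses gene names and no measured value, but the list was chosen with earlier results of these data known.

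One RNA came from primary spleen B cells of C57BL/6 mice given the miR181b-GFP retrovirus, which encodes the microRNA miR-181b and green fluorescent protein (GFP). Its counterpart came from B cells of the same strain with the control GFP virus. For both, CD43-positive cells had been removed, and the culture held 25 µg/ml of lipopolysaccharide with 10 ng/ml of interleukin-4. Both were exposed to virus for 20 h with 8 µg/ml of polybrene and sorted for GFP on day 2. The labels give 1 biological replicate per vector, and no age or number of mice was given in the sources used here. Both RNAs were hybridised together on 2 arrays with the dyes exchanged, the miR-181b RNA being in Cy5 on array 1 and in Cy3 on array 2. Since both arrays carry a single pair of RNAs, they are a technical repeat, the vectors could not be tested against each other, and every difference describes these RNAs. Log2 ratios are given as miR-181b over control. A value with ± is the average of array 1 and array 2, and the number after ± is how far each lies from it.

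N-glycosylation begins on the lipid dolichol in the membrane of the endoplasmic reticulum, where a series of transferases adds N-acetylglucosamine, mannose and glucose. The oligosaccharyltransferase moves the finished chain onto asparagines of proteins entering the organelle. Glucosidases and mannosidases then trim it, which is part of the quality control of folding, and Golgi enzymes add the outer sugars. B cells that turn to antibody secretion load this route heavily, since immunoglobulin heavy chains carry N-glycans. The transcription factor Xbp1 is known to raise many genes of the secretory route in plasma cells. In these RNAs the ratio of Xbp1 was 0.50 on array 1 and 1.47 on array 2 (0.99 ± 0.49).

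The microRNA itself is shown because its seed, bases 2 to 8 in capitals, sets which letters a target site would hold. RefSeq (GRCm38.p6) gives the same mature sequence for both of its genes, at chr1:137966650-137966673 and chr2:38853845-38853868, both on the plus strand.
mmu-miR-181b-5p: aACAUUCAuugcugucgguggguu

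The complement of this seed, TGAATGT, was searched on the probe strand only. It was held by 1 of the 69 member probes, and by 0.954% of all 41174 probes. That probe belongs to Mpi1 (current symbol Mpi), the isomerase that turns fructose 6-phosphate into mannose 6-phosphate. The match goes on with an A, and the 8 letters are in capitals in the 30 bases around it.
Mpi1 probe: gtgcactcttTGAATGTAtactggattaga
The ratio of Mpi1 was 0.19 on array 1 and -0.24 on array 2, so the arrays had opposite signs. The match describes the letters of the probe and shows no effect of the microRNA.

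As a group, the N-glycan genes stood slightly higher in the miR-181b RNA. Their median log2 ratio was 0.17 (0.05 on array 1 and 0.21 on array 2), against -0.01 over all measured genes (0.01 on array 1 and -0.02 on array 2). Of the 39 genes, 18 were higher on both arrays and 5 were lower on both, while 16 had opposite signs. The shares were 46.2% higher and 12.8% lower. Over all measured genes the shares on both arrays were 24.5% higher and 27.4% lower. With a minimum of 0.1 on each array, set after the values were seen, 10 of the 39 were higher and 2 lower, where the shares over all genes were 9.73% and 10.6%. The differences were small. Only Ddost reached 1.5-fold on the mean in either direction, where 0.820% of all genes were that much higher and 0.513% that much lower, the arrays sharing a sign. No member reached 2-fold, as 0.00569% of all genes did upward and 0.0968% downward.

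**Figure D1:**
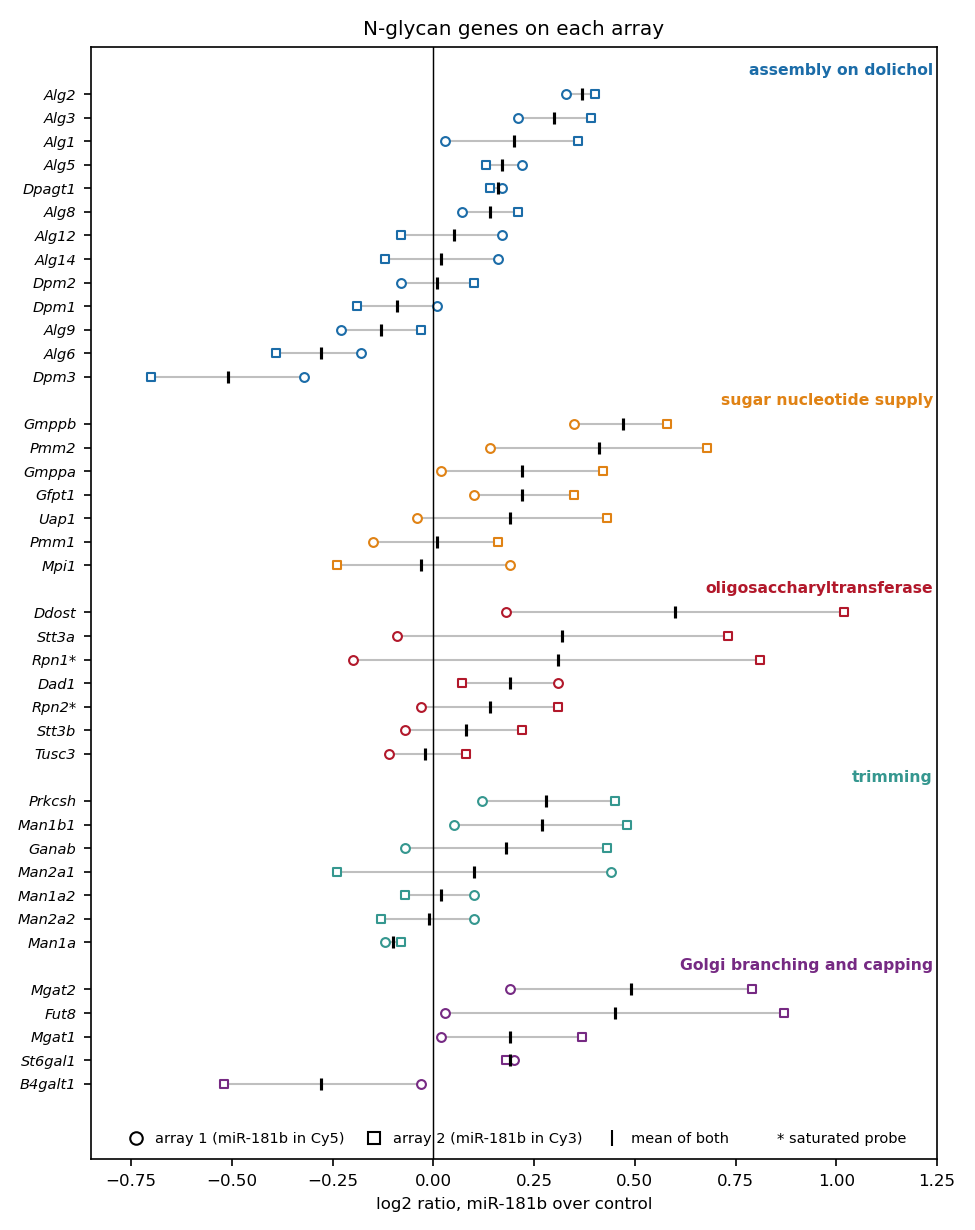
Log2 ratio of miR-181b over control (horizontal axis) for each of the 39 genes, in 5 groups by step, with array 1 as a circle, array 2 as a square and the mean as a bar. Means run between -0.51 (Dpm3) and 0.60 (Ddost), and array 2 often lies farther from 0 than array 1.

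The arrays did not weigh equally in this. The median distance of either array from the mean was 0.15 for the members and 0.09 over all genes. Across the members, the ratios on array 1 and array 2 had a Pearson correlation of only 0.18. Among the 16 members with opposite signs, 9 were above 0 on array 2 only and 7 on array 1 only. The members were mostly bright, with 26 of 39 in the 3 brightest of 10 groups of equal size by signal. Each was therefore also set against the median of all genes in its own brightness group. The median difference was then 0.18 (0.06 on array 1 and 0.21 on array 2), and 29 of 39 members lay above their group. A median by definition has as many genes above it as below. On both arrays 18 members (46.2%) lay above and 5 below, against 26.4% and 26.4% of all genes.

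This setting mattered once the loess step, which removes a trend of the ratio with brightness, was replaced by centring each array on its median. The median of the members was then -0.21 and that of all genes also -0.21, so that the members did not stand above all genes. In that setting, however, the ratio of all genes went down with brightness, with a median of 0.04 in the dimmest of the 10 groups and -0.40 in the brightest. Against genes of their own brightness the members had a median of 0.17, and 31 of 39 lay above. Array 1 alone gave 0.04 and array 2 alone 0.19, so the excess was larger on array 2. On both arrays 48.7% of the members and 26.4% of all genes lay above. The excess is thus relative to genes of like brightness. Comparing within brightness groups takes out the same trend as loess does. The closeness of 0.17 to the 0.18 found with loess is therefore not a separate check. Between these settings 22 of the 39 means changed sign, so the sign of a small ratio depends on the normalisation.

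**Figure D2:**
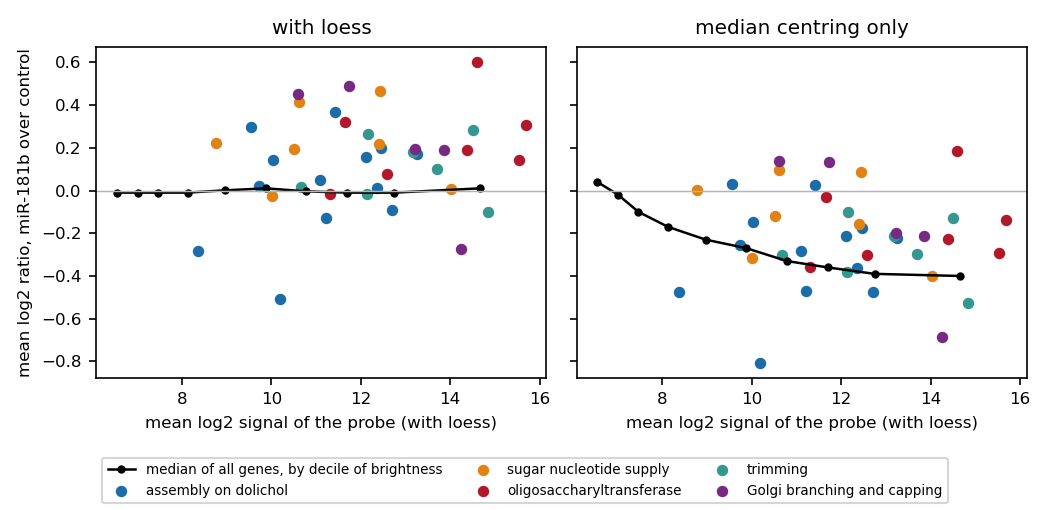
Mean log2 ratio of miR-181b over control for each member (points, coloured by step) against the mean log2 signal of its probe, with loess on the left and with median centring on the right. The black line is the median of all measured genes in 10 groups by brightness, which is flat near 0 on the left and runs between 0.04 and -0.40 on the right.

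The assembly of the chain on dolichol was mixed. The median of the 13 genes was 0.05 (array 1 at 0.07, array 2 at 0.10). Both arrays placed 6 of them higher (46.2%) and 3 lower (23.1%), where 24.5% of all genes were higher and 27.4% lower. Dpm3, the small subunit that holds dolichol phosphate mannose synthase in the membrane, was the lowest member. Its normalised signal was 1034 and 931 intensity units in the miR-181b RNA on arrays 1 and 2, against 1288 and 1511 in the control RNA. The ratio was -0.32 and -0.70 (-0.51 ± 0.19, 1.42-fold lower). The other subunits of that synthase were nearer to 0. The catalytic Dpm1 was at 0.01 and -0.19 (its dimmer probe at -0.19 on the mean), and the stabilising Dpm2 at -0.08 and 0.10.

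Among the transferases that face the cytosol, Alg2, which adds the inner branching mannoses, had the largest ratio. Its signal was 3158 and 3059 in the miR-181b RNA, against 2504 and 2313 in the control RNA. The ratio was 0.33 and 0.40 (0.37 ± 0.03, 1.29-fold higher). Dpagt1, which starts the chain and is the enzyme blocked by tunicamycin, was at 0.17 and 0.14. Alg1, which adds the first mannose, was at 0.03 and 0.36, and Alg14, which helps to add the second N-acetylglucosamine, at 0.16 and -0.12. Alg5, which makes the dolichol-bound glucose donor, was at 0.22 and 0.13.

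The transferases that act inside the organelle were mixed, among mannose and glucose steps alike. Alg3, which adds the first mannose on the inner side, had a signal of 803 and 865 in the miR-181b RNA, against 696 and 659 in the control RNA (0.30 ± 0.09). Alg12, a later mannosyltransferase, was at 0.17 and -0.08, with its dimmer probe at 0.31 on the mean. Alg9, which also adds mannose there, was lower at -0.23 and -0.03. Alg6, which adds the first glucose, had a signal of 308 and 291 in the miR-181b RNA, against 350 and 380 in the control RNA. Its ratio was -0.18 and -0.39 (-0.28 ± 0.10). Alg8, which adds the next glucose, was at 0.07 and 0.21. Alg6 and Alg8 thus had opposite signs, each with the same sign on both arrays.

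**Figure D3:**
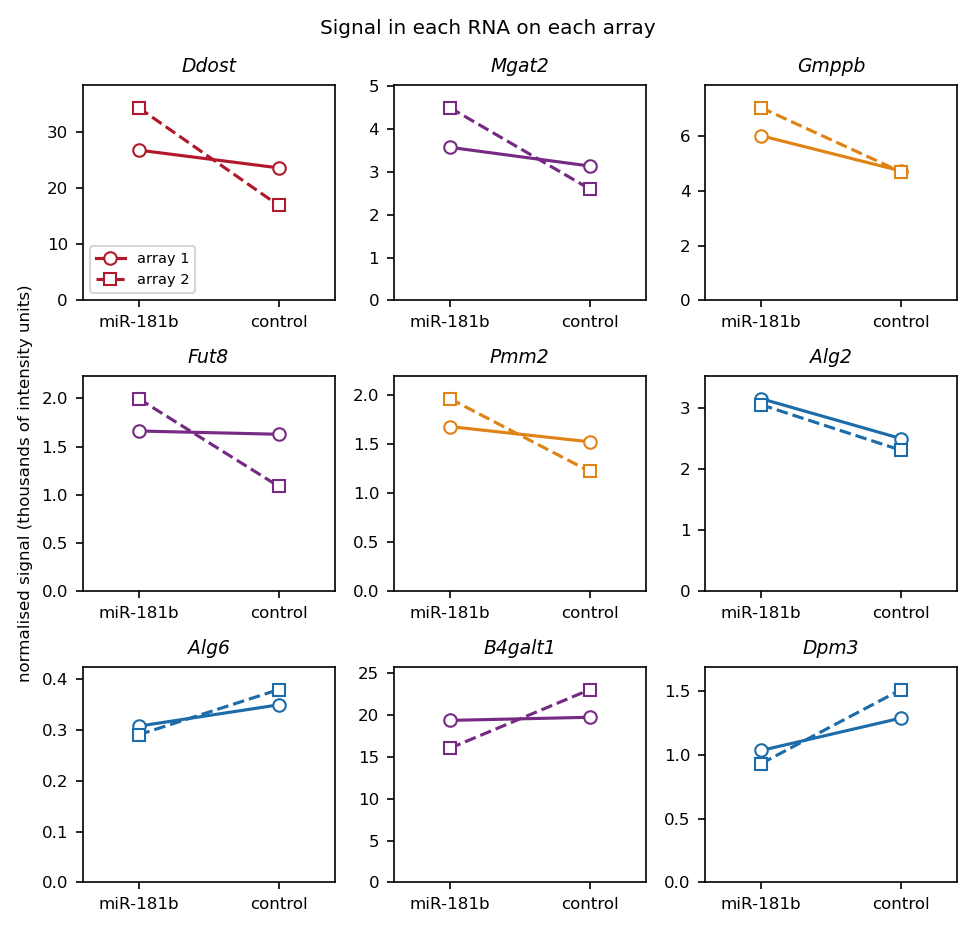
Normalised signal in intensity units (vertical axis, linear, starting at 0, its own range for each gene) in the miR-181b RNA and the control RNA, joined for array 1 (circles, solid) and array 2 (squares, dashed). Shown are the 6 highest and 3 lowest members with the same sign on both arrays, and for most of them the step between the RNAs is larger on array 2.

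The genes that supply the sugars were higher as a group, with a median of 0.22 (array 1 at 0.10, array 2 at 0.42). Both arrays placed 4 of the 7 higher (57.1%) and 0 lower, against 24.5% and 27.4% of all genes. Gmppb, the enzyme that makes GDP-mannose, led them. Its signal was 6014 and 7039 in the miR-181b RNA, against 4727 and 4693 in the control RNA. The ratio was 0.35 and 0.58 (0.47 ± 0.12, 1.38-fold higher), above 98.2% of all genes. Its regulatory relative Gmppa had a signal of 5414 and 6285 in the miR-181b RNA, against 5326 and 4714 in the control RNA (0.22 ± 0.20), which is hardly a difference on array 1.

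Pmm2, the main phosphomannomutase, whose loss causes the most frequent congenital disorder of glycosylation in people, had a signal of 1676 and 1960 in the miR-181b RNA, against 1521 and 1220 in the control RNA. The ratio was 0.14 and 0.68 (0.41 ± 0.27), and the dimmer probe gave 0.17 on the mean. Its relative Pmm1 was at -0.15 and 0.16. Gfpt1, which opens the hexosamine route, had a signal of 448 and 496 in the miR-181b RNA, against 420 and 389 in the control RNA (0.22 ± 0.13, with the other probe at 0.26). Uap1, which makes UDP-N-acetylglucosamine, was at -0.04 and 0.43. The mannose branch thus held both the highest genes of this step (Gmppb and Pmm2) and the one with a negative mean (Mpi1).

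The oligosaccharyltransferase held the highest member of all, but few of its genes had the same sign on both arrays. The median of its 7 listed genes was 0.19, array 1 being at -0.07 and array 2 at 0.31. Both arrays placed 2 of them higher (28.6%) and 0 lower, where the shares over all genes were 24.5% and 27.4%. The share of higher genes was thus near that of all genes. Ddost, a noncatalytic subunit of the complex, had a signal of 26845 and 34430 in the miR-181b RNA, against 23672 and 16970 in the control RNA. Its ratio was 0.18 and 1.02 (0.60 ± 0.42, 1.52-fold higher), above 99.2% of all genes, and most of that came from array 2. It did not reach 1.5-fold on array 1 alone, after scaling between arrays (mean 0.51) or with median centring (mean 0.18). Dad1, a small subunit named as a defender against cell death, had a signal of 23210 and 22521 in the miR-181b RNA, against 18761 and 21440 in the control RNA (0.19 ± 0.12).

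The large subunits Rpn1 and Rpn2 were limited by their brightness. The brightest probe of each was saturated in Cy5 on both arrays, so that the RNA in Cy5 is understated there, and they gave -0.20 and 0.81 for Rpn1 and -0.03 and 0.31 for Rpn2. With the brightest probe that was not saturated, a choice made after the values were seen, Rpn1 was at 0.23 and 0.50 (0.37 ± 0.14). Rpn2 was at 0.15 and 1.02 (0.59 ± 0.43). Both were then higher on both arrays, and the median of the 7 listed genes of the complex was 0.32. The dimmest Rpn1 probe was at 0.14 and 0.04. Subunit genes outside the list were at 0.07 (Ostc), 0.09 (Krtcap2), 0.01 (Ost4), 0.16 (Magt1) and -0.41 (Tmem258) on the mean.

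The catalytic subunits did not share a clear direction. Stt3a, which acts while a protein is still being made, was at -0.09 and 0.73 with its brightest probe, and its other probes gave -0.05 and -0.12 on the mean. Stt3b, which acts mainly on sites that were passed over, was at -0.07 and 0.22 (0.20 on the mean with another probe). Tusc3, a subunit of the Stt3b form with an oxidoreductase fold, was at -0.11 and 0.08.

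The upstream sequences of the highest and the lowest member are shown, since both ends of the range are described by them. Each stretch holds the 250 bases before the RefSeq start site (GRCm38.p6), at chr4:138304488-138304737 for Ddost and chr3:89266211-89266460 for Dpm3, both on the plus strand. Capitals mark CCAAT or CCACG on either strand.
Ddost: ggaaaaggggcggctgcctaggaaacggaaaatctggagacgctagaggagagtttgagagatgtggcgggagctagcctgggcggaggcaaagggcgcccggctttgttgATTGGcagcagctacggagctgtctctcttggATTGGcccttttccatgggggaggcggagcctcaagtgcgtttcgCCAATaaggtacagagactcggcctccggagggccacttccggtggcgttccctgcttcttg
Dpm3: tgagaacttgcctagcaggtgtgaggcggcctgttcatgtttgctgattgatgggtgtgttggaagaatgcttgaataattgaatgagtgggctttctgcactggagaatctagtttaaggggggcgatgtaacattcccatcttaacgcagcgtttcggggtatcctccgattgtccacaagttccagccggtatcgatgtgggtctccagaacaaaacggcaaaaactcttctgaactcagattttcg
The stretch of Ddost held 3 marked matches and that of Dpm3 held 0.

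RefSeq promoters, with 250 bases before the start site and 50 after it, were found for 33 of the 39 genes and for 27025 genes in all. Letters known from promoters of the unfolded protein response were searched on both strands. The ER stress element, CCAAT and CCACG with 9 bases between them, was in 1 of the 33 (Alg12) and in 0.137% of all genes. The shorter GCCACGT, the core letters bound by Xbp1, was in 3 of the 33 (Alg6, Gfpt1 and Ganab) and in 2.95% of all genes. The letters TGACGTGG were in 0 of the 33 and in 0.714% of all genes, and ATTGG and CCACG with 1 base between them in 0 of the 33 and in 0.0444% of all genes. The single pieces CCACG and CCAAT, which the longer motifs contain, were each in 19 of the 33, or 57.6%, where 35.5% and 41.1% of all genes held them.

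The matches of Alg12, Alg6 and Gfpt1 lie before the start site and are shown with their flanks, the motif letters in capitals. They are at chr15:88819509-88819548 on the minus strand for Alg12, chr4:99715510-99715549 on the plus strand for Alg6 and chr6:87042706-87042745 on the plus strand for Gfpt1.
Alg12: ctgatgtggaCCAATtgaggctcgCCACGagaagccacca
Alg6: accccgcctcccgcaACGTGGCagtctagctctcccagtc
Gfpt1: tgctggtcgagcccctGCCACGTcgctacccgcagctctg
Genes with the same letters differed in direction, Alg6 being lower on both arrays and Gfpt1 higher on both, while Ganab had opposite signs. A match is a description of the letters and shows no binding.

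The trimming enzymes had a median of 0.10 (array 1 at 0.10, array 2 at -0.07), with 2 of 7 higher and 1 lower on both arrays. Those shares, 28.6% higher and 14.3% lower, stand beside 24.5% and 27.4% of all genes. Glucosidase II, which removes the inner glucoses, is made of a catalytic and a retention subunit. The retention subunit gene Prkcsh had a signal of 24551 and 26703 in the miR-181b RNA, against 22607 and 19548 in the control RNA (0.28 ± 0.17). The catalytic Ganab was at -0.07 and 0.43, and its other probe gave 0.15 on the mean.

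Man1b1, a mannosidase that marks slowly folding proteins for disposal, had a signal of 4637 and 5429 in the miR-181b RNA, against 4479 and 3887 in the control RNA (0.27 ± 0.22). Man1a, a Golgi mannosidase of the same family, had a signal of 27586 and 28732 in the miR-181b RNA, against 30072 and 30343 in the control RNA. That is a small but steady difference (-0.10 ± 0.02), yet its 2 dimmer probes gave 0.13 and 0.37 on the mean, so its direction was not settled. Its relative Man1a2 was at 0.10 and -0.07. The later Golgi mannosidases Man2a1, at 0.44 and -0.24, and Man2a2, at 0.10 and -0.13, had opposite signs on the arrays.

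The 5 Golgi genes that build and cap the branches all had the same sign on both arrays. Of these, 4 were higher (80.0%) and 1 lower (20.0%), against 24.5% and 27.4% of all genes. Their median was 0.19 (array 1 at 0.03, array 2 at 0.37). On array 1, Mgat1 (0.02), Fut8 (0.03) and B4galt1 (-0.03) lay close to 0, so their signs there carry little weight. Mgat2, which starts the branch needed for complex glycans, had a signal of 3577 and 4504 in the miR-181b RNA, against 3140 and 2603 in the control RNA. Its ratio was 0.19 and 0.79 (0.49 ± 0.30), above 98.5% of all genes. Mgat1, which acts before it, had a signal of 9333 and 11012 in the miR-181b RNA, against 9223 and 8537 in the control RNA (0.19 ± 0.18). Both genes were thus higher by the probe used, though for Mgat1 array 1 was at 0.02 only. The dimmer Mgat1 probe was at -0.07 and 0.42, so its arrays had opposite signs.

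Fut8 adds the core fucose, which in antibodies weakens binding to an activating receptor on natural killer cells. Its signal was 1661 and 1996 in the miR-181b RNA, against 1627 and 1089 in the control RNA. The ratio was 0.03 and 0.87 (0.45 ± 0.42), and its dimmer probe gave -0.02 and 0.65, so that nearly all of the difference lay on array 2. St6gal1, which adds the sialic acid recognised by the B cell receptor Cd22, was at 0.20 and 0.18 (0.19 ± 0.01), with its dimmer probe at 0.39 on the mean.

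B4galt1, the galactosyltransferase that extends the branches before sialic acid is added, was the exception among the Golgi genes. Its signal was 19384 and 16052 in the miR-181b RNA, against 19759 and 23066 in the control RNA. The ratio was -0.03 and -0.52 (-0.28 ± 0.25). Its other probes gave -0.22 and 0.10 on the mean, the last from the dimmest probe.

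**Figure D4:**
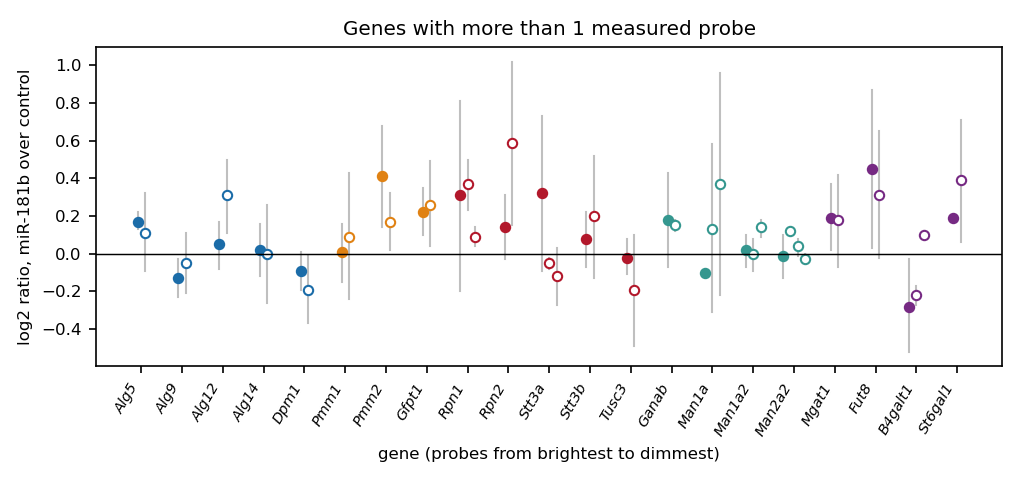
Mean log2 ratio of miR-181b over control for each measured probe of the 21 genes with more than 1 (brightest probe filled, others open), with a grey line between the values of the 2 arrays. In 15 genes the probes had 1 sign and in 6 they differed, as for Stt3a and Man1a.

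Probes of the same gene did not always share a direction. Among the 21 genes that had several measured probes, the means of all probes shared a sign in 15. The 6 others were Alg14, Stt3a, Man1a, Man1a2, Man2a2 and B4galt1. Over all 67 measured member probes, 29 were higher and 9 lower on both arrays, and their median was 0.14. Over all 25806 measured probes of the array, 6132 were higher and 6762 lower, with a median of 0.000.

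Other genes of the pathway had a median nearer to 0. A further list of 50 genes covered dolichol, other transferases, other subunits of the oligosaccharyltransferase and trimming. It also covered folding control, glycan recognition and removal, sugar transport and sugar supply. Of these genes 48 were measured, with a median of 0.05 (array 1 at 0.02, array 2 at 0.03). Both arrays placed 19 higher (39.6%) and 12 lower (25.0%), against 24.5% and 27.4% of all genes, and 0 reached 1.5-fold. With the minimum of 0.1 on each array, 3 of the 48 were higher and 5 lower. The shares over all genes were then 9.73% and 10.6%, so no excess of higher genes was seen at that bar. The highest with the same sign on both arrays were the dolichol reductase gene Srd5a3 (0.27 ± 0.08), the sialic acid synthase gene Nans (0.25 ± 0.18), Dhdds, which makes the dolichol chain (0.16 ± 0.10), and Magt1, the relative of Tusc3 (0.16 ± 0.13). The lowest were the hexokinase gene Hk1 (-0.42 ± 0.03, its other probes between -0.05 and 0.19) and the oligosaccharyltransferase subunit gene Tmem258 (-0.41 ± 0.23, another probe at 0.01). Mgat5, which adds a further branch, was at -0.20 ± 0.13 and the sialyltransferase gene St3gal1 at -0.20 ± 0.01.

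The cells' labelled type and other cell types were checked by markers. All 8 B cell markers were measured, 2 of them saturated, with a median of 0.21 (array 1 at -0.16, array 2 at 0.70). Both arrays placed 2 of them higher and 0 lower, where 24.5% of all genes were higher and 27.4% lower. Of 7 plasma cell markers 5 were higher and 0 lower on both arrays, with a median of 0.36 (array 1 at 0.18, array 2 at 0.40). Their summed signal was 99192 and 165518 in the miR-181b RNA, against 101307 and 73526 in the control RNA, 1 of them being saturated. The median of T cell markers (7 of 8 measured, Cd8a not) was -0.07, and that of macrophage and monocyte markers (5 of 6 measured, Fcgr1 not) was -0.02. Medians were 0.03 for dendritic cell (4 of 5 measured), -0.12 for granulocyte and mast cell (2 of 6) and 0.34 for natural killer cell markers (3 of 4). They were 0.39 for erythroid (1 of 4) and 0.29 for stromal cell markers (2 of 5). Higher and lower on both arrays were 3 and 3 T cell, 1 and 2 macrophage and monocyte, and 2 and 1 dendritic cell markers. The counts were 0 and 2 for granulocyte and mast cell, 2 and 0 for natural killer cell, 1 and 0 for erythroid and 1 and 0 for stromal cell markers. The part of the plasma cell genes in the shift of the N-glycan genes was not tested, and in bulk RNA a change in the share of such cells cannot be told apart from a change in RNA per cell.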

How the data were processed

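A pair of 2-colour Agilent arrays (45018 spots, of which 43379 were not controls) was analysed. Agilent Feature Extraction, version 9.1.3.1 per the file headers, wrote both deposited scanner files. Their mean spot intensity and local background intensity are linear and uncorrected, as deposited. The processed intensity was dye-normalised by lowess, per the file headers, and the log10 ratio deposited with it divides Cy5 by Cy3. In a further table, the authors gave log2 ratios. Its rows were tied by value to probes with 1 spot (within 0.0001, after turning array 2 and adding 0.0011 and 0.0327). Of 40899 such probes 40161 had a single matching row, and all 69 member probes were matched. Its column medians were -0.0626 and -0.0704.

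Background correction was by normexp (offset 50) and normalisation by loess within an array, in limma 3.58.1 under R 4.3.3. Control spots had weight 0, outlier spots (7 and 21) were dropped, and saturated spots stayed in. A probe is the average of its spots, and a gene is its brightest probe. Signals quoted are after loess and Aquantile. Probes that were not members were named through RefSeq (GRCm38.p6), by accession for 22890, symbol for 6651 and synonym for 3107, and 8455 kept the file's name. A pair of probes that RefSeq synonyms place at Gfpt1 was not used. Per channel, 64.7% to 67.7% of spots were well above background, and the number of arrays limits the precision. On simulated arrays (43379 probes, miR-181b over control), 98% of 50 probes at 0.8 and 92% of 50 at -0.8 were found at 1.5-fold. Of 17087 unchanged ones 0% were. The simulation held measurement noise and a dye effect only, with no saturation and no variation between cultures, and dim probes were not scored. It therefore gives no rate of false calls for these RNAs.

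The members and lists were chosen with earlier results of these data known. All members are named, and signals are given for up to 4 per step, taken by the size of the mean among those whose arrays share a sign. The arrays are on the same slide and count as 1 replicate. The alternatives tried are given in the closing section.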

Additional observations from a re-analysis of the deposited data

How the results depend on the processing

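Median centring in place of loess gave medians of -0.21 for all 39 genes, -0.26 for assembly, -0.12 for sugar supply, -0.23 for the oligosaccharyltransferase, -0.30 for trimming and -0.20 for Golgi genes. Counts were then 3 higher and 21 lower on both arrays, and 0 higher and 2 lower (Dpm3 and B4galt1) at 1.5-fold. Of the single members 30 then shifted past the spread of their own arrays, against 0 to 2 with the scanner's log ratio, the deposited table, no background correction, the mean of all probes, no filter, scaling or unsaturated probes. Of all genes 9.03% were then higher and 55.3% lower on both arrays. Set against genes of like brightness, the step medians were 0.04, 0.23, 0.18, 0.11 and 0.19. The assembly median was 0.14 with the mean of all probes and 0.08 after scaling between arrays. The 1.5-fold higher count was 0 after scaling and 2 (Ddost and Rpn2) with the brightest unsaturated probe, chosen after seeing the data. The cause was not tested. The deposited table follows the scanner's ratio up to a constant on each array, so it is not a separate check of it. All 39 members passed the filter on dim probes, so leaving it out could hardly change them. With the scanner's log ratio, the deposited table, no background correction, no filter on dim probes or without saturated genes, the median of all members was 0.17 to 0.20. On each array alone it was 0.05 to 0.21, for assembly 0.07 to 0.10, sugar supply 0.10 to 0.42, the oligosaccharyltransferase -0.07 to 0.31, trimming -0.07 to 0.10 and Golgi 0.03 to 0.37. Counts on 1 array were 25 to 27 higher, 12 to 14 lower, 0 to 6 at 1.5-fold higher and 0 to 1 at 1.5-fold lower. Above the median of all genes lay 25 of 39 members on array 1 alone and 27 on array 2 alone. By definition, as many of all genes lie above that median as below. The 1.5-fold counts on 1 array have no share of all genes beside them and cannot be weighed. Ddost was 0.18 on array 1 alone. No paired analysis was possible because both arrays carry the same RNAs.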
